A study of Homo sapiens with 6 samples.

Results

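Gasdermins are proteins that open pores in the plasma membrane once a protease has cut them, and the lytic cell death that follows is called pyroptosis. Inflammatory caspases do the cutting in the classical route, apoptotic caspases and granzymes do it in others, and NINJ1 then tears the membrane open. Innate immune cells and barrier epithelia are the tissues best known for this machinery, while K562 is an erythroleukaemia cell line. The 9 genes described here are the gasdermins GSDMA, GSDMB, GSDMC, GSDMD and GSDME, the caspase genes CASP1, CASP4 and CASP8, and NINJ1. Each was taken by its symbol in the platform annotation, and each had 1 probe set, so that 9 of the 21448 probe sets of the array are described.

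The series holds 6 arrays of total RNA from K562, 3 from cultures carrying a miR-543 vector (a microRNA, labelled overexpressed) and 3 from cultures carrying a control vector. All 6 samples share the cell line and a bone marrow label, and carry no other allele or agent in the labels. The labels do not say whether the replicates were separate cultures, or how the vector was built or delivered, so the errors and p-values cover the variation among these 6 samples alone, part or all of which can be technical. The level of the microRNA itself was not checked here, as it was the name of no probe set.

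The microRNA itself is shown because it is the agent that separates the groups. The mature sequence is given by RefSeq (GRCh38.p14, chr14:101032033-101032054, + strand), 5′ to 3′, with the seed, bases 2 to 8, in capitals.
hsa-miR-543: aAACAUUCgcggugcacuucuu
Of 2370 mature human miRNA names in the RefSeq table, 1 has this seed, miR-543 itself. The 3′ UTRs of the 9 genes, where a seed match would be looked for, were not used here.

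Signals are log2 values per probe set. The array medians lay between 5.99 and 6.01, the lower quartiles between 3.98 and 4.03 and the upper quartiles between 9.61 and 9.66. Probe sets differ in how brightly they respond, so the levels of different genes are not ranked against each other, and no detection calls were used. Taken over probe sets, which are no independent replicates, Pearson's r was 0.995 to 0.996 within groups and 0.993 to 0.995 between them. In RNA from a whole culture, fewer cells of a type and less RNA per cell cannot be told apart.

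GSDME stood apart from the other 8 genes. It is a gasdermin that granzyme B can cut, and it is also known as DFNA5, a gene of inherited hearing loss. Its signal was 7.20, 6.88 and 7.22 with the miR-543 vector, against 6.05, 5.71 and 6.04 with the control vector. All 3 miR-543 arrays lay above all 3 control arrays, and the gap between the groups was wider than the range within either. The means were 7.10 ± 0.19 with the miR-543 vector and 5.93 ± 0.19 with the control vector (SD, n = 3 each). The difference was 1.17 on the log2 scale (SE 0.16, 95% interval 0.81 to 1.52), a 2.24-fold higher signal with the miR-543 vector. This was the largest rise but 5 among all probe sets (rank 6 of 21448), and 0.298% of probe sets differed by more in either direction. The genes were chosen by family and pathway with this contrast known, and GSDME was selected on its difference in signal between the vectors, so the differences of all 9 are given as a description, with no p-value, and calls among them are only counted beside the share over all probe sets. How much of a signal near the array medians is background was not tested.

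GSDMD, the main executioner downstream of the inflammasome, did not share that difference. It read 4.94, 5.11 and 5.24 with the miR-543 vector and 5.28, 5.22 and 5.03 with the control vector. The groups overlapped, and every value was below the median of its array. The difference was -0.08 (SE 0.15, 95% interval -0.41 to 0.25).

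GSDMB, which granzyme A of killer lymphocytes cuts, had values of 5.43, 6.12 and 5.93 with the miR-543 vector against 5.96, 6.04 and 6.20 with the control vector. Replicate 1 of the miR-543 group was lower than the other 5 arrays, which spanned 5.93 to 6.20. The difference of -0.24 (SE 0.19, 95% interval -0.65 to 0.17) was -0.04 without that array.

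GSDMA is best known from skin, where a streptococcal protease can cut it. It read 4.61, 4.21 and 4.48 with the miR-543 vector and 4.73, 4.08 and 4.47 with the control vector. The means were all but equal, with a difference of 0.01 (SE 0.19, 95% interval -0.41 to 0.43). GSDMC, a gasdermin that caspase-8 can cut in tumour cells, read 4.22, 4.76 and 3.86 with the miR-543 vector and 4.0, 3.91 and 4.09 with the control vector. One miR-543 array, replicate 2, was high, and another, replicate 3, was the lowest of the 6. The difference of 0.28 (SE 0.21, 95% interval -0.19 to 0.75) was 0.04 without replicate 2. Both genes lay below the array medians on all 6 arrays.

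CASP1 encodes caspase-1, the protease of the inflammasome that matures IL-1 beta and IL-18 and cuts GSDMD. Its signal was 3.25, 3.65 and 3.48 with the miR-543 vector and 3.78, 3.35 and 3.34 with the control vector. All 6 values lay below the lower quartile of their array, and the groups overlapped. The difference was -0.03 (SE 0.17, 95% interval -0.41 to 0.35). Whether these signals exceeded background was not tested.

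CASP4 encodes caspase-4, which binds lipopolysaccharide in the cytosol and cuts GSDMD without an inflammasome sensor. It read 5.78, 5.51 and 5.66 with the miR-543 vector and 5.83, 5.55 and 5.34 with the control vector, below the median on every array. The highest and the lowest value both came from control arrays. The difference was 0.08 (SE 0.16, 95% interval -0.29 to 0.44).

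CASP8 encodes the initiator caspase of death receptors, which restrains necroptosis and can cut gasdermins when other routes are blocked. Its signal was 11.01, 10.96 and 11.44 with the miR-543 vector and 10.90, 11.09 and 10.44 with the control vector. All 6 values lay above the upper quartile of their array. The means were 11.1 ± 0.26 with the miR-543 vector and 10.8 ± 0.33 with the control vector (SD, n = 3 each), and control replicate 2 lay above 2 of the 3 miR-543 arrays. The difference of 0.33 (SE 0.20, 95% interval -0.12 to 0.77) was 0.14 without control replicate 3 and 0.18 without miR-543 replicate 3.

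NINJ1, the protein that ruptures the plasma membrane late in lytic death, read 7.08, 7.09 and 6.44 with the miR-543 vector and 6.60, 6.84 and 6.88 with the control vector. The miR-543 arrays were split, with replicates 1 and 2 above all control arrays and replicate 3 below them. Its difference was 0.10 (SE 0.19, 95% interval -0.33 to 0.53), and 0.31 without miR-543 replicate 3.

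**Figure D1:**
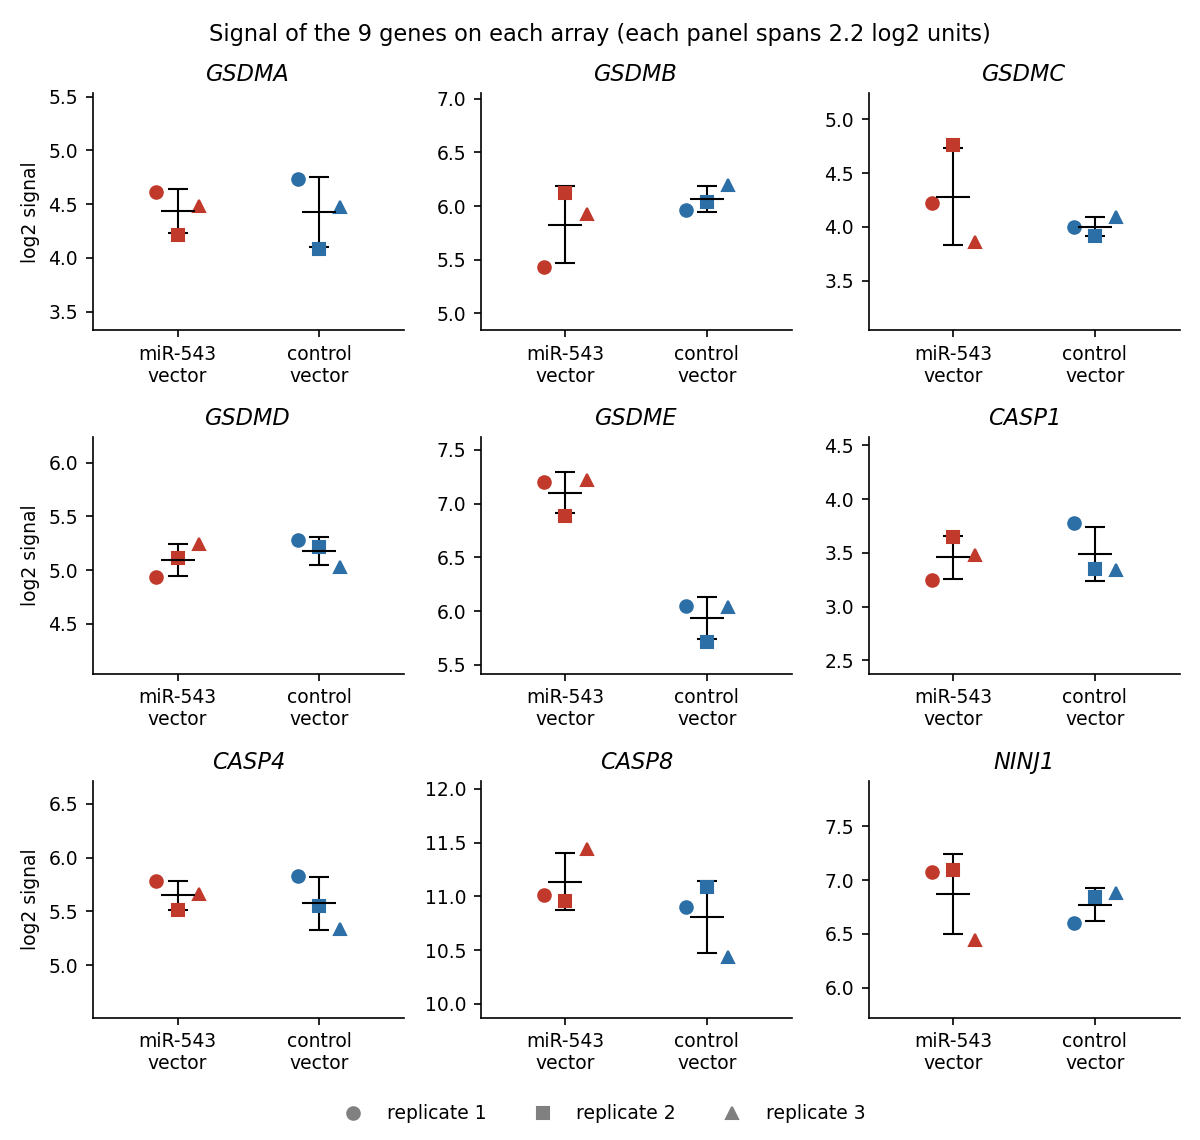
The log2 signal of each gene is plotted for the 3 miR-543 vector arrays (red, left) and the 3 control vector arrays (blue, right), with marker shape for the replicate and bars for the mean ± SD. GSDME is the panel in which the groups separate, at 6.88 to 7.22 with the miR-543 vector and 5.71 to 6.05 with the control vector.

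Across the 9 genes, 6 differences were above 0 and 3 below. Their median was 0.08, beside 0.01 over all 21448 probe sets, and their median size regardless of sign was 0.10, beside 0.14 over all. Setting GSDME aside, the differences ran between -0.24 and 0.33, inside the range of -0.50 to 0.48 that held the central 95% of all probe sets. One of the 9 genes had groups that did not overlap, GSDME. In the full set of arrays 15.4% of probe sets had groups apart in either direction, and 7.89% had the miR-543 arrays higher. In the limma fit over all probe sets, 1 of the 9 genes was called at a Benjamini-Hochberg adjusted p under 0.05, again GSDME, where 0.569% of all probe sets were called and 0.131% were called as higher. Because the choice of the genes used this contrast, nothing is read from these counts, here or when arrays are left out. The median residual SD of the 9 genes was 0.27, beside 0.20 over all probe sets.

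**Figure D2:**
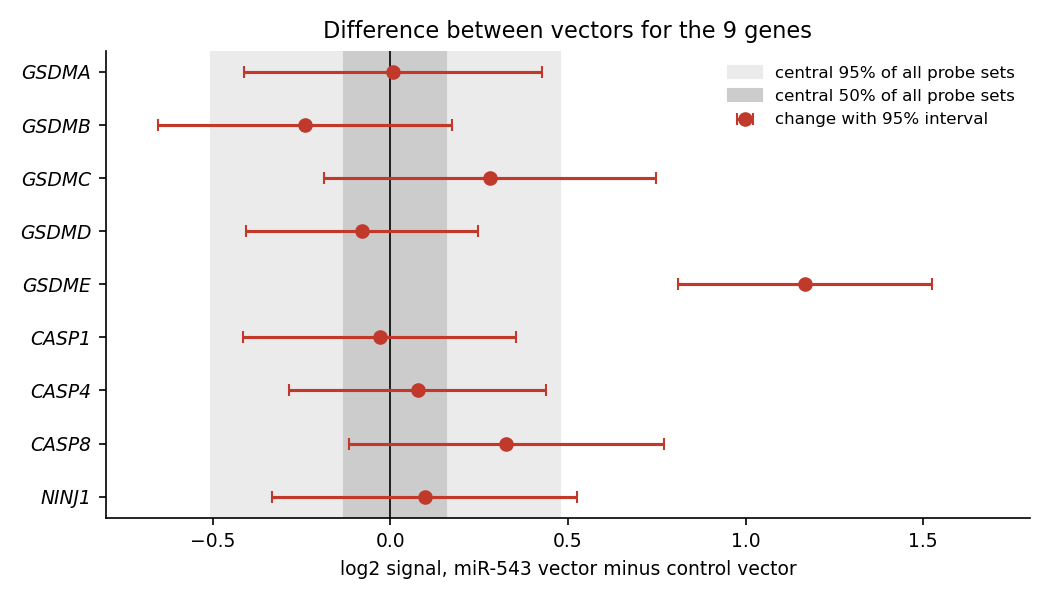
Points give the log2 signal with the miR-543 vector minus that with the control vector for each gene, and bars the 95% interval from the limma fit. Shading marks the central 50% and 95% of all 21448 probe sets, and GSDME, at 1.17, is the gene that lies outside the wider band.

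The GSDME difference lay between 1.06 and 1.28 in the 11 alternative settings tried. Its direction could not turn with 1 array left out, since its groups did not overlap. Trend and robust moderation, the filter and the replicate number as a block do not alter the difference itself. GSDME was also selected on this difference, so nothing is read from its steadiness. The count of called genes fell to 0 of 9 without miR-543 replicate 1 or 3 and without control replicate 1, 2 or 3, where the arm left short has 2 arrays. It was 1 without miR-543 replicate 2 and in the 5 settings that used all arrays. In 1 of those 5, a filter on low signals, only 3 of the 9 genes were tested. Single arrays turned the sign of GSDMA, CASP1, CASP4 and NINJ1, whose differences were all 0.10 or smaller in size, while GSDMB, GSDMC, GSDMD and CASP8 kept their sign.

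**Figure D3:**
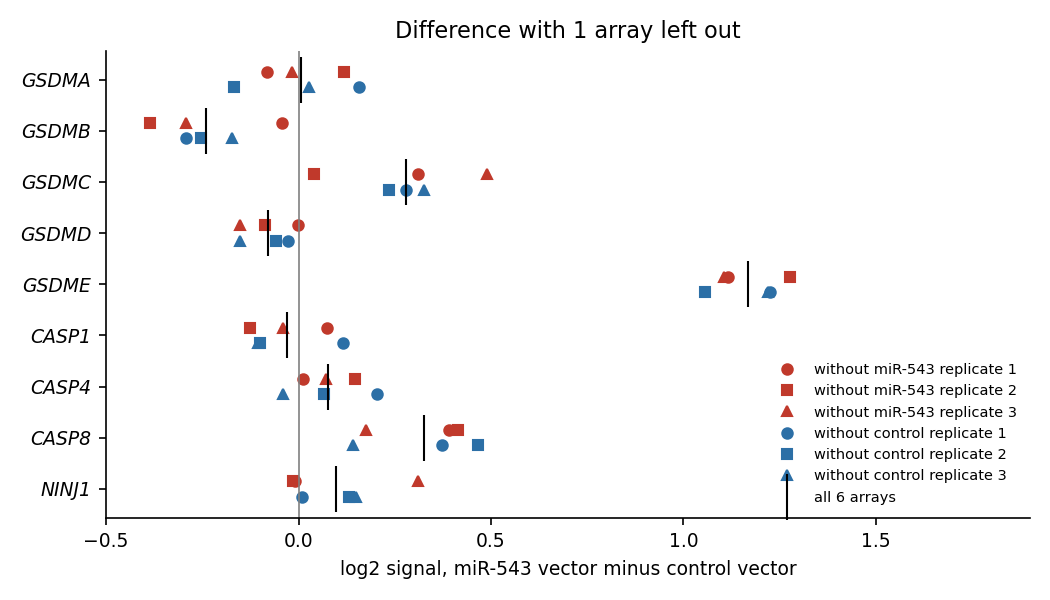
Each marker is the log2 difference, miR-543 vector minus control vector, after 1 of the 6 arrays was left out, with black ticks for all 6 arrays. GSDME stays between 1.06 and 1.28, whereas GSDMA spans -0.17 to 0.16 and GSDMC 0.04 to 0.49.

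The series title concerns TET1 and TET2, enzymes that oxidise methylated cytosine in CG dinucleotides. The promoter of GSDME is known as a site of DNA methylation in tumours, so the CG content of the promoters is given. DNA methylation was not measured on these arrays. RefSeq promoter windows (GRCh38.p14, 250 bases before to 50 after a transcript start) were used. They cover 5 of the 9 genes, GSDMA, GSDME, CASP4, CASP8 and NINJ1. GSDMB, GSDMC, GSDMD and CASP1 were left out of the CG comparison. Their absence does not mean that these genes lack a promoter window, and their CG content was not tested. The windows below are the gene with the difference and a gene without one, 5′ to 3′ on the gene's strand, with each CG in capitals (the motif reads the same on both strands). GSDME lies at chr7:24757415-24757714 on the - strand, and CASP4 at chr11:104968525-104968824 on the - strand.
GSDME: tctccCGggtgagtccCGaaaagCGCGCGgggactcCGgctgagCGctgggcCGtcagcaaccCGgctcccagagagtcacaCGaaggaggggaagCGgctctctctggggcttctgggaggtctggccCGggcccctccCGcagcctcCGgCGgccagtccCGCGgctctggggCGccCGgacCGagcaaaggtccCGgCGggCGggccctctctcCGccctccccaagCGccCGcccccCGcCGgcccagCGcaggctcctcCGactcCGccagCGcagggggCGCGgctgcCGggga
CASP4: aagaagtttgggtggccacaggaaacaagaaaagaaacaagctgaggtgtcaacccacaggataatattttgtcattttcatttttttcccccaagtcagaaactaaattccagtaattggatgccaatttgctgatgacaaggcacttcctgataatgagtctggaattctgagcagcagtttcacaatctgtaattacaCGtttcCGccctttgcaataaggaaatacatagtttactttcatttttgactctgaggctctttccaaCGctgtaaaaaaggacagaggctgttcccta
The GSDME window holds 35 CG dinucleotides, and 14.1% of the 35116 promoter windows of this length hold at least as many. NINJ1 has 38 in its window, a count that 9.91% of windows reach, with a difference between vectors of 0.10. The CASP4 window holds 3 and the GSDMA window 4, and the 3 CASP8 windows hold 5 or 6, beside a median of 14 over all windows.

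The genes next to GSDME on chromosome 7 did not show its difference. On one side, PALS2, a scaffold protein of cell junctions, differed by 0.08, the neuropeptide gene NPY by 0.18 and the kinase gene STK31 by 0.28. On the other side, OSBPL3, a lipid transfer protein, differed by -0.16, the cytochrome c gene CYCS by 0.01 and SPMIP4 by -0.35. None of these 6 genes was called by limma, with adjusted p-values between 0.477 and 0.991.

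GSDMA and GSDMB lie close together on chromosome 17, with ORMDL3, a regulator of sphingolipid synthesis, and LRRC3C between them. ORMDL3 read 7.88, 7.61 and 7.82 with the miR-543 vector and 8.10, 8.22 and 8.10 with the control vector. Its groups did not overlap, and the difference of -0.37 did not pass over all probe sets (limma adjusted p = 0.393). LRRC3C also differed by -0.37 (limma adjusted p = 0.475), with all 6 values below the lower quartiles. Of the 3 genes beyond GSDMB, GRB7 differed by 0.19, IKZF3 by -0.24 and ZPBP2 by -0.02. Beyond GSDMA, the proteasome gene PSMD3 differed by -0.24, the cytokine gene CSF3 by -0.19 and the thyroid hormone receptor gene THRA by -0.16. These 6 genes were not called either.

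The genes nearest to GSDME in pattern were sought as the smallest root mean square difference over the 6 arrays, after each gene was centred on its own mean. They were PLEK, a substrate of protein kinase C in platelets, at 0.15, the glycogen-targeting phosphatase subunit PPP1R3C at 0.15, the syntaxin STX11 at 0.16 and the cadherin FAT1 at 0.19. In that order they differed between vectors by 0.89, 1.00, 1.22 and 1.27. The GSDME pattern is mostly its difference between vectors, so closeness to it largely ranks genes by that difference. Of the other 8 genes described here CASP8 was nearest to GSDME, at 0.52, and 2486 of the 17708 other named probe sets were nearer. CASP8 also had the largest difference of those 8 genes, at 0.33. PLEK had 5.39, 5.08 and 5.42 with the miR-543 vector and 4.51, 4.28 and 4.43 with the control vector. As in GSDME, its miR-543 replicate 2 and control replicate 2 were the lowest of their groups. In PPP1R3C, STX11 and FAT1 miR-543 replicate 2 was also the lowest of its group, but the lowest control array was replicate 1. All 4 genes were picked by closeness over these same 6 arrays, so a shared order of arrays follows in part from that choice. PLEK and STX11 lay below the array medians on all 6 arrays.

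The rest of the pathway was read from 10 lists with 99 distinct genes, 88 of them measured here. None of the 88 was called by limma over all probe sets, in either direction, beside 0.569% of all probe sets. With trend and robust moderation 2 of the 88 were called, beside 1.17% of all probe sets. At an unadjusted p under 0.05 there were 12 of 88 (13.6%), 8 higher and 4 lower, beside 10.6% of all probe sets. The groups did not overlap for 16 of 88 (18.2%), beside 15.4% of all. The median difference of the 88 genes was 0.04, beside 0.01 over all probe sets. Of the 28 list genes named below, 13 had a difference that moved by over 1.5 times when 1 array was left out, and those values are given with them.

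Among cytokines and danger signals, IL18, which caspase-1 matures and gasdermin pores release, had the smallest p of all lists. Its signal was 7.14, 7.28 and 6.76 with the miR-543 vector, against 8.27, 8.0 and 7.69 with the control vector. Each miR-543 array was lower than each control array, with a difference of -0.93 (SE 0.19, 95% interval -1.35 to -0.50). It did not pass over all probe sets (limma adjusted p = 0.0814), and its limma adjusted p ranged from 0.0311 to 0.315 over 11 alternative settings, passing with trend and robust moderation and with a filter on low signals. IL1B, the other cytokine of caspase-1, read 3.37, 3.32 and 3.51 with the miR-543 vector and 3.73, 3.57 and 3.97 with the control vector, all below the lower quartiles. Its difference of -0.36 had a limma adjusted p of 0.444. IL18BP, a secreted decoy that binds IL-18, differed by -0.34 (limma adjusted p = 0.636), and by -0.12 without control replicate 1. In this list 0 of 8 genes were called and 6 had differences below 0, the median being -0.17.

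Inflammasome sensors and adaptors had 0 of 11 measured genes called and a median of 0.02. PYCARD, the adaptor ASC that joins sensors to caspase-1, read 11.72, 11.50 and 11.74 with the miR-543 vector and 10.71, 11.07 and 11.45 with the control vector. Its groups did not overlap, and miR-543 replicate 2 lay only just above control replicate 3. The difference of 0.58 (SE 0.19) had a limma adjusted p of 0.317. NEK7, a kinase that NLRP3 needs, differed by -0.24 (limma adjusted p = 0.603). The sensor NLRP3 differed by 0.14 (limma adjusted p = 0.824), and by 0.03 without miR-543 replicate 1. Like CASP1, it was below the lower quartile on all 6 arrays.

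Genes of the caspase-1 locus and of the lipopolysaccharide route of caspase-4 also had none called, of 4 and of 8 measured. CARD16, a CARD-only relative of caspase-1, differed by 0.41 (limma adjusted p = 0.506), CASP5 by -0.21 (0.753) and CARD18 by -0.27 (0.735). Single arrays carried much of these differences, which were 0.25 for CARD16 without miR-543 replicate 2, -0.04 for CASP5 without miR-543 replicate 3 and -0.02 for CARD18 without control replicate 2. Guanylate-binding proteins coat cytosolic bacteria and expose their lipopolysaccharide to caspase-4. GBP1 read 3.99, 3.97 and 4.67 with the miR-543 vector and 3.25, 3.31 and 3.63 with the control vector, a difference of 0.81 (limma adjusted p = 0.178). GBP5 read 4.03, 3.56 and 4.43 with the miR-543 vector and 4.44, 4.78 and 4.58 with the control vector, a difference of -0.59 (limma adjusted p = 0.365) that was -0.37 without miR-543 replicate 2. The groups of both genes were apart, in opposite directions, at signals below the array medians. For GBP1 every array but miR-543 replicate 3 read below its lower quartile. LY96, the lipopolysaccharide partner of TLR4, differed by 0.22 (limma adjusted p = 0.721), and by 0.11 without miR-543 replicate 3.

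The list of proteases that could act on GSDME and its relatives, which also holds APAF1 and the cytochrome c gene CYCS, differed little. Of 7 measured genes 0 were called, and the median was 0.01. GZMB, the granzyme that cuts GSDME, read 6.85, 7.06 and 6.91 with the miR-543 vector and 6.74, 6.63 and 7.19 with the control vector, and is named here after its values were seen. CASP9 and APAF1, which form the apoptosome, differed by 0.35 and -0.15 (limma adjusted p = 0.518 and 0.854), and CASP6 by 0.27 (0.578). Without miR-543 replicate 2 APAF1 was at 0.04, and without control replicate 3 CASP6 was at 0.16.

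Partners of caspase-8 in death receptor signalling and necroptosis had 0 of 15 measured genes called and a median of 0.04. The death receptor FAS read 5.44, 5.65 and 5.58 with the miR-543 vector and 5.33, 5.21 and 5.07 with the control vector. The difference of 0.35 with groups apart had a limma adjusted p of 0.415. RIPK3, the kinase of necroptosis, differed by 0.31 (limma adjusted p = 0.566) at signals below the lower quartiles, and the adaptor TICAM1 by 0.25 (0.596).

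The list of membrane repair genes and inhibitors, which also holds NINJ2, had 0 of 16 measured members called and a median of -0.01. The ESCRT machinery sheds gasdermin pores from the membrane, and its ATPase gene VPS4B read 8.94, 8.78 and 8.83 with the miR-543 vector against 9.23, 9.30 and 9.23 with the control vector. That difference of -0.40 (SE 0.13) had a limma adjusted p of 0.309. The ESCRT subunit CHMP2B differed by -0.32 (limma adjusted p = 0.518), and BIRC2, an inhibitor of cell death at receptor complexes, by 0.37 (0.414).

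The list of lipidation and the Ragulator-Rag complex, which bear on how gasdermins reach membranes, had 10 of 13 measured genes above 0 (as were 52.9% of all probe sets), with a median of 0.19, and 0 called. It holds palmitoyltransferases and also LYPLA1 and LYPLA2, enzymes that remove palmitate, at -0.05 and -0.12. LAMTOR5, a Ragulator subunit, read 13.38, 13.45 and 13.67 with the miR-543 vector and 12.75, 13.10 and 12.99 with the control vector. The groups were apart by 0.55 on average (SE 0.15, limma adjusted p = 0.227), and the limma adjusted p ranged from 0.0269 to 0.599 over 11 alternative settings, passing with trend and robust moderation. RRAGC, a Rag GTPase, differed by 0.39 (limma adjusted p = 0.46) and the palmitoyltransferase ZDHHC7 by 0.36 (0.444). RRAGC was at 0.23 without control replicate 1.

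Of 5 measured transcription factors of pyroptosis genes, 0 were called, and the median was 0.18. IRF2, which drives GSDMD transcription, read 8.66, 8.50 and 8.14 with the miR-543 vector and 8.13, 8.12 and 7.84 with the control vector. Its groups were separated by 0.01 at the closest arrays, and the difference of 0.40 had a limma adjusted p of 0.443. The NF-kB genes NFKB1 and RELA differed by 0.28 and -0.28 (limma adjusted p = 0.636 and 0.711), but by 0.12 without miR-543 replicate 2 for NFKB1 and by -0.045 without miR-543 replicate 3 for RELA. PJVK, the remaining gasdermin family member and a hearing loss gene like GSDME, read 4.36, 4.72 and 4.53 with the miR-543 vector and 4.77, 4.10 and 3.89 with the control vector. Its difference of 0.28 had a limma adjusted p of 0.71 and was 0.10 without control replicate 3, and its groups overlapped.

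**Figure D4:**
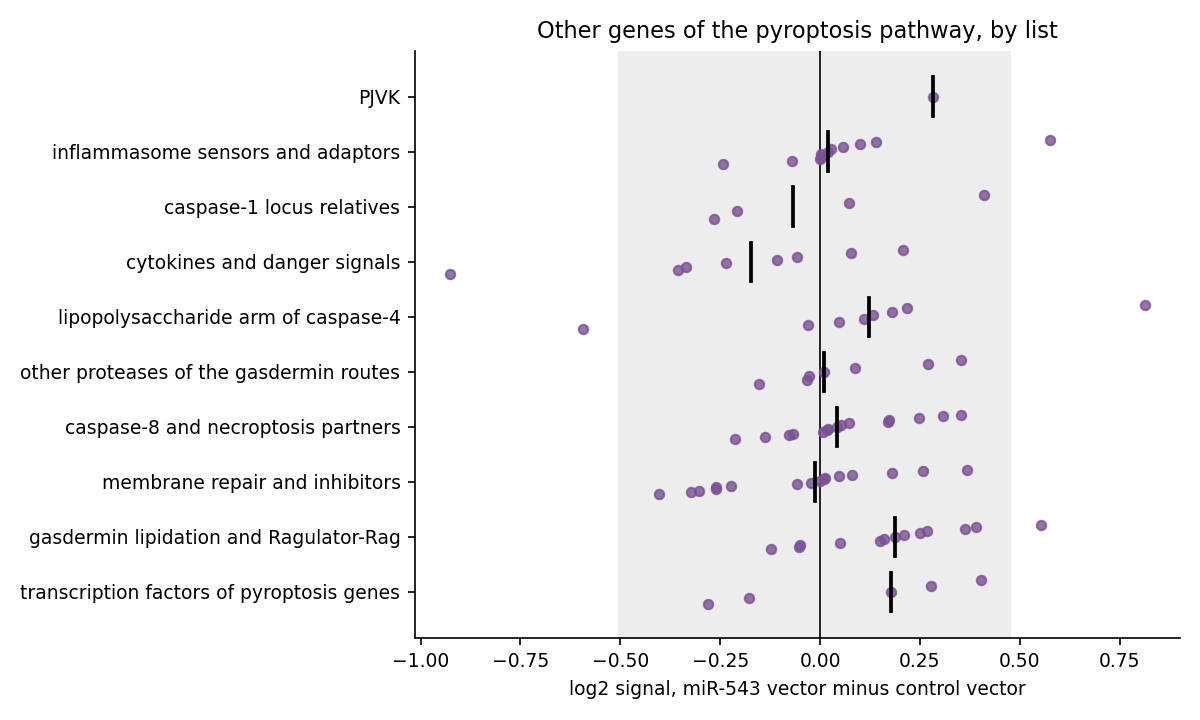
Each point is a gene of 10 pathway lists, placed at its log2 signal with the miR-543 vector minus that with the control vector, with a black tick for the list's median and shading for the central 95% of all probe sets. IL18 at -0.93 and GBP1 at 0.81 are the outermost points, and none of the 88 genes was called.

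Markers of other cell types that carry gasdermins were read beside GSDME. Of the 8 erythroid markers measured, 7 lay above the median on all arrays, and 0 were called. Mean signals over the list were 12.3 to 12.4 with the miR-543 vector and 12.0 to 12.2 with the control vector, ranges that did not overlap. The groups of KLF1, TAL1 and ALAS2 were apart, by 0.66, 0.41 and 0.40 (limma adjusted p = 0.106, 0.371 and 0.385). Those of HBE1, HBZ, GATA1, EPOR and TFRC overlapped, with differences between -0.08 and 0.32. Monocyte and macrophage markers averaged 6.39 to 6.61 with the miR-543 vector and 6.38 to 6.55 with the control vector, and 6 of its 10 genes were below the median on all arrays. Of that list CD14 was low, while LYZ and CD68 were above the upper quartile on all arrays, with differences of 0.07 and -0.02. T and NK cell markers averaged 5.83 to 6.10 with the miR-543 vector and 5.98 to 6.12 with the control vector. Of the 8 genes measured in that list, 4 were below the median on all arrays. Within that list the groups of PRF1, the perforin gene, and of CD3D were apart in opposite directions, by -0.93 and 0.64 (limma adjusted p = 0.195 and 0.184). Epithelial and keratinocyte markers averaged 7.84 to 7.88 with the miR-543 vector and 7.84 to 7.90 with the control vector. EPCAM and the simple keratins KRT8, KRT18 and KRT19 were high in both. The other 5 of the 9 measured genes, CDH1, KRT5, KRT14, CLDN4 and DSG3, were below the median on all arrays. Stromal and fibroblast markers also had ranges that did not overlap, at 5.0 to 5.11 with the miR-543 vector and 4.57 to 4.95 with the control vector. Of the 7 stromal genes 6 lay below the median on all arrays, and the part of the erythroid and stromal shifts in the GSDME difference was not tested. None of the 42 markers measured over the 5 lists was called by limma.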

How the data were processed

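The authors deposited log2 signals per probe set for 6 arrays, rounded to 2 decimals. Their tools, per the submitters' processing notes, were Transcriptome Analysis Console 4.0 and RMA, which corrects background, normalizes between arrays and summarises probes. RMA can compress differences at low signal. Which RMA variant was run, and on which annotation or build, is not given in the sources used here. Gene names came from the platform annotation, matched by gene identifier to RefSeq (GRCh38.p14), for 17709 of 21448 probe sets. There were 0 columns of other samples.

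Groups came from the sample titles. The log2 values of all probe sets were fitted with limma 3.58.1 in R 4.3.3 (lmFit, eBayes without trend, no filter), two-sided, with Benjamini-Hochberg adjustment over all probe sets and a call at an adjusted p under 0.05. Differences are miR-543 vector minus control vector, with moderated SE and 95% intervals. The number of arrays limits the precision. The steps were tested on simulated data.

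The 9 genes and all lists were chosen with earlier results of these data known. From each list the 3 genes with the smallest p were named, with the 3 neighbours on each side of GSDME and of the chromosome 17 pair, and the 4 genes nearest GSDME in pattern. Alternatives were trend and robust moderation, a filter at the median of means, quantile normalization, equal array medians, the replicate number as a block and leaving out each array.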

Additional observations from a re-analysis of the deposited data

How the results depend on the processing

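Deviations from the group means correlated at 0.09, -0.05 and 0.02 for same-numbered arrays, and at -0.09 to 0.07 for differently numbered ones. With 3 arrays per group these values constrain each other, so they cannot settle whether the replicate numbers pair the arrays. With the number as a block (replicate block) 71 probe sets were called in place of 122, GSDME among them. The count over all probe sets was 252 with trend and robust moderation and 34 to 59 when 1 array was left out. Of the 9 genes, 0 to 1 were called with 1 array left out, and 1 in each other setting. The filter removed 6 of the 9 genes. Of the pathway genes 2 were called with trend and robust moderation, IL18 and LAMTOR5, and 1 of the 56 left by the filter, IL18, where fewer probe sets are tested. No gene had a further probe set, so that alternative gave no value. Small differences of genes that were not called turned their sign when 1 array was left out, with ranges of -0.045 to 0.05 for CYCS, -0.17 to 0.10 for ZPBP2, -0.31 to 0.042 for APAF1, -0.028 to 0.23 for PALS2, -0.14 to 0.38 for GRB7 and -0.43 to 0.055 for IKZF3. The cause of these shifts was not tested. Low signals limit what could be seen for genes such as CASP1, NLRP3, IL1B, RIPK3 and GBP1.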
